A study of Mus musculus with 6 samples.

Results

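Notch signalling was followed through 10 genes in muscle stem cells of Adult and Young mice, namely the receptors Notch1, Notch2 and Notch3, the ligands Dll1, Dll4 and Jag1, the DNA-binding effector Rbpj, and the target genes Hes1, Hey1 and Heyl. The members were the probes, other than control probes, whose gene name in the deposited array files was exactly one of these symbols. The rule found 13 probes for the 10 genes, of 55681 probes in all, and each of the 13 was well above background on all 6 arrays, so every gene was among the 32068 genes tested. The samples were satellite cells, the stem cells that lie beneath the basal lamina of muscle fibres, sorted from skeletal muscle of male C57BL/6 mice with no genetic change or treatment named. Adult mice were 6 months old (3 samples). Young mice were 3, 2 and 3 months old for replicates 1, 2 and 3, so Young replicate 2 was the only sample of 2 months. Sorting kept cells positive for integrin alpha7 and CD34 and discarded those with CD31, CD45, CD11b or Sca1. RNA of the few sorted cells was amplified before labelling with Cy3, and each sample was read on 1 single-colour Agilent array. The labels speak of biological replicates without saying how many mice gave each sample, so p-values measure only the spread between these samples.

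Notch receptors span the cell membrane and are activated by ligands on a neighbouring cell. Ligand binding leads to successive cuts by an ADAM protease and by the gamma-secretase complex, which free the inner part of the receptor. That fragment enters the nucleus, joins Rbpj and a Mastermind protein, and switches on Hes and Hey genes, whose products repress genes of differentiation. In mouse satellite cells Notch signalling is known for holding the cells in quiescence, and loss of Rbpj there leads to premature differentiation.

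The array carried 1 probe for each of 7 members and 2 probes for Notch1, Notch2 and Rbpj. For the genes with 2 probes, the probe nearer the 5′ end of the transcript is printed, because these genes were read at 2 places in their transcripts and both readings enter the results. Sequences and positions are those of the array files, on mouse build mm9. The Notch1 probe lies at chr2:26319440-26319499 on the minus strand, the Notch2 probe at chr3:97951233-97951292 on the plus strand and the Rbpj probe at chr5:54044777-54044836 on the plus strand.
Notch1: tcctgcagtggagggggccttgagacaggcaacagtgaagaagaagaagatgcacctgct
Notch2: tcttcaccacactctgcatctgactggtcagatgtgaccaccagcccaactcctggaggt
Rbpj: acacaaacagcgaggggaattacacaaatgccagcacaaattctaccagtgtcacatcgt
The other probes of these genes lay further 3′, at chr2:26314630-26314689 (Notch1), chr3:97953914-97953973 (Notch2) and chr5:54048503-54048562 (Rbpj). The main value of a gene is that of its brighter probe, which was the printed one for Notch1 and Rbpj and the more 3′ one for Notch2. Of the members with a single probe, Notch3 was read at chr17:32257848-32257907, Dll1 at chr17:15504623-15504682, Dll4 at chr2:119160779-119160838 and Jag1 at chr2:136907433-136907492. The target genes were read at chr16:30067820-30067879 (Hes1), chr3:8663432-8663491 (Hey1) and chr4:122926975-122927034 (Heyl). The Dll1 probe was spotted 10 times on each array and every other member probe once.

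Between 47554 and 49957 probes were well above background on Adult arrays and between 41528 and 45926 on Young arrays. Levels are log2 of the processed signal relative to the 75th percentile of the same array, and differences are Adult minus Young on that scale. Over all genes, the median difference was 0.30, and it was lower for brighter genes. With genes split into 4 equal brightness classes by mean level, the median was 1.44 in the dimmest class, 0.56 in the second, -0.05 in the third and -0.31 in the brightest. Notch1, Notch2, Notch3, Rbpj, Hes1, Hey1 and Heyl lay in the brightest class, Dll1 and Jag1 in the third and Dll4 in the second. The levels of different probes cannot be set against each other, so no order of abundance among the members is given.

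The receptor Notch1 and the ligand Dll1 fell in Adult satellite cells, and the other 8 members did not pass the threshold (limma, Benjamini-Hochberg adjusted p under 0.05 over all 32068 genes). Against the 2 of 10 members called lower stand 8.44% of all genes and 18.9% of the brightest class. No member was called higher by limma, with Dll4 the 1 higher at an unadjusted p under 0.05, against 20.0% of all genes called higher, and 28.5% of genes were called in either direction. Differences were negative for 8 members and positive for Dll4 and Hes1, and their median was -0.31, the same as that of the brightest class at this rounding. The Adult and Young values did not overlap for 5 of the 10 members, against 55.6% of all genes. The share of members called lower and their median are thus close to those of the brightest class, which holds 7 of the 10, and not to those of all genes.

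**Figure D1:**
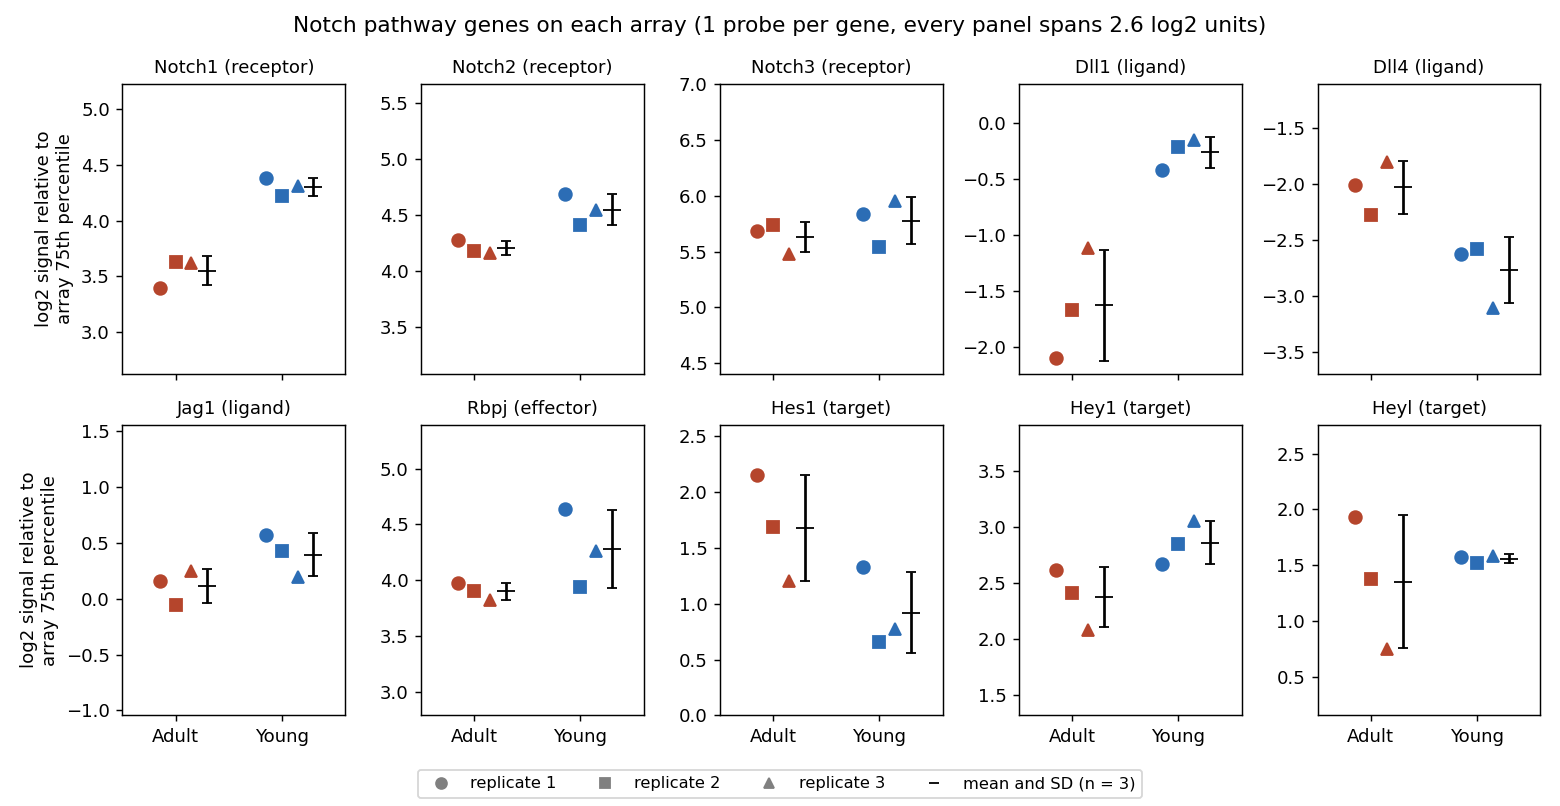
Level of each member on each array, as log2 signal relative to the array's 75th percentile, for 3 Adult arrays (red) and 3 Young arrays (blue), with bars for mean and SD (n = 3); symbols mark replicates 1 to 3, and panels have their own axes of equal span. Notch1 and Dll1 lie lower on every Adult array than on any Young array, Dll4 lies higher, and Notch3, Heyl, Jag1, Rbpj and Hes1 overlap.

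Among the receptors, Notch1 stood at 3.40, 3.63 and 3.62 on Adult arrays 1, 2 and 3, against 4.38, 4.22 and 4.31 on Young arrays 1, 2 and 3. All Adult values lay below all Young values, with little spread within either group. Notch1, a receptor of satellite cells and many other stem cells, was 1.69-fold lower in Adult (log2 difference -0.75 ± 0.17 SE, 95% confidence interval -1.18 to -0.33, limma adjusted p = 0.0322). Its dimmer, more 3′ probe, with processed signals of 2198, 2286 and 1440 in Adult and 3338, 4432 and 4098 in Young, gave a similar difference of -0.80 ± 0.23 SE (adjusted p = 0.0530 over all probes). Relative to the median of the brightest class of genes the Notch1 difference was -0.44. The call was lost with quantile normalization (adjusted p = 0.0567), cyclic loess (0.0727) and array row as a block (0.0502). It was also lost with any single array left out. The adjusted p of Notch1 was then 0.0763, 0.0750 and 0.0794 without Adult replicate 1, 2 or 3, and 0.0801, 0.0543 and 0.0797 without Young replicate 1, 2 or 3.

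Notch2, also a receptor of quiescent satellite cells, stood at 4.27, 4.18 and 4.16 on the Adult arrays, against 4.69, 4.41 and 4.54 on the Young arrays. The groups did not overlap, but the gap was small, at -0.34 ± 0.17 SE (limma adjusted p = 0.165). These values are those of the more 3′ probe. The printed Notch2 probe, the dimmer of the pair, was at -0.48 ± 0.20 SE (adjusted p = 0.111 over all probes), again without overlap. Notch3, a receptor of satellite cells and of the mural cells of vessels, stood at 5.68, 5.73 and 5.48 in Adult, against 5.83, 5.54 and 5.95 in Young. These groups overlapped, and the difference of -0.15 ± 0.20 SE (adjusted p = 0.571) had a 95% confidence interval of -0.63 to 0.34.

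Among the ligands, Dll1 stood at -2.10, -1.67 and -1.11 on Adult arrays 1, 2 and 3, against -0.42, -0.21 and -0.15 on Young arrays 1, 2 and 3. Every Adult value lay below every Young value, and the Adult arrays were spread more widely, with SDs of 0.50 in Adult and 0.14 in Young (n = 3 each). Dll1, the Delta-like ligand made in mouse muscle by activated and differentiating myogenic cells, was 2.58-fold lower in Adult (log2 difference -1.37 ± 0.29 SE, 95% confidence interval -2.07 to -0.66, limma adjusted p = 0.0282). The 10 copies of its probe measure the error of single spots. The SD between copies on 1 array was 0.12, 0.12 and 0.08 on the Adult arrays and 0.10, 0.06 and 0.04 on the Young arrays, with 7 copies used on Adult array 3, 9 on Young array 1 and 10 elsewhere. Copies on 1 array share their RNA and are no replicates.

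The Dll1 difference was -1.32 relative to the median of genes of its own brightness class. It stayed past the threshold under each scaling tried, with values from -1.91 with median scaling to -1.23 with scaling on well-detected probes only, those above background on every array. Leaving out single arrays ended the call in 5 of 6 cases. The adjusted p of Dll1 was 0.0655, 0.0736 and 0.0582 without Adult replicate 1, 2 or 3, 0.0652 without Young replicate 1 and 0.0693 without Young replicate 3. Without Young replicate 2, the sample of 2 months, it was 0.0472. In bulk samples, fewer cells that make a transcript and less of it per cell cannot be told apart. Of 8 listed markers of committed muscle cells, 5 were lower and 1 was higher in Adult, against 8.44% and 20.0% of all genes. The defining ones were Myog, the transcription factor of differentiation, at -5.24 and Mymk, which makes muscle cells fuse, at -3.72. On Adult arrays 1, 2 and 3, Myog stood at -4.13, -3.40 and -3.91 and Mymk at -2.80, -3.32 and -2.89. On Young arrays 1, 2 and 3, Myog stood at 1.40, 1.15 and 1.73 and Mymk at 0.91, 0.27 and 0.97. The summed level of the 8 markers, as signal relative to the 75th percentile, ran from 8.09 to 9.47 in Adult and from 22.4 to 27.2 in Young. Their part in the Dll1 difference was not tested.

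Dll4, a Delta-like ligand best known from vessel endothelium, stood at -2.00, -2.27 and -1.80 in Adult, against -2.62, -2.58 and -3.11 in Young. It was the only member whose values were all higher in Adult, with a difference of 0.74 ± 0.24 SE (limma adjusted p = 0.0598). Processed signals were 134.1, 128.7 and 152.1 in Adult and 89.81, 111.0 and 88.7 in Young, the highest Young signal being below the lowest Adult signal. Genes of its brightness class had a median of 0.56, and relative to that median Dll4 lay at 0.19. The size depended on scaling, at 0.09 with quantile normalization (adjusted p = 0.758) and 0.88 with scaling on well-detected probes only (adjusted p = 0.0431). Of 11 measured endothelial markers, limma called 0 in either direction, against 28.5% of all genes, with 1 marker at an unadjusted p under 0.05. Jag1, a Jagged ligand, stood at 0.16, -0.06 and 0.24 in Adult, against 0.57, 0.43 and 0.19 in Young. The groups overlapped, with a difference of -0.28 ± 0.20 SE (adjusted p = 0.285).

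Rbpj, the DNA-binding protein through which all Notch receptors act on genes, stood at 3.98, 3.90 and 3.83 in Adult, against 4.64, 3.94 and 4.26 in Young. Young replicate 2 lay beside the Adult values, inside the range they spanned, while the other Young arrays were higher. The difference was -0.38 ± 0.23 SE (limma adjusted p = 0.232), with a 95% confidence interval of -0.94 to 0.19. The dimmer, more 3′ Rbpj probe, with processed signals of 870.5, 864.7 and 500.9 in Adult and 1043, 1204 and 1618 in Young, did not overlap between the groups, and its difference was -0.59 ± 0.26 SE (adjusted p = 0.126 over all probes).

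Of the 3 target genes, limma called 0, with 0 at an unadjusted p under 0.05, and their differences had both signs. Hes1, a repressor of the basic helix-loop-helix family, stood at 2.15, 1.69 and 1.20 on Adult arrays 1, 2 and 3, against 1.33, 0.66 and 0.77 on Young arrays 1, 2 and 3. Adult was higher on average, but Adult replicate 3 lay below Young replicate 1. The Hes1 difference was 0.76 ± 0.32 SE (limma adjusted p = 0.111), with a 95% confidence interval of -0.02 to 1.54. Hes1 lay 1.07 above the median difference of its brightness class, where Notch1 lay 0.44 below it. Under the other scalings and array subsets the Hes1 difference ran from 0.22 with median scaling to 1.16 within array row 1. It was always positive and never past the threshold. In array row 1, Adult replicate 1 was the only Adult array.

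Hey1, a repressor that with Heyl maintains satellite cells in mice, stood at 2.62, 2.42 and 2.08 in Adult, against 2.67, 2.85 and 3.06 in Young. The groups did not overlap, though Adult replicate 1 and Young replicate 1 nearly met, and the difference was -0.49 ± 0.22 SE (limma adjusted p = 0.129). Heyl stood at 1.94, 1.38 and 0.75 in Adult, against 1.58, 1.52 and 1.59 in Young. The Young arrays were within 0.04 of each other in SD, whereas the Adult arrays, with an SD of 0.59, lay on both sides of them. The Heyl difference was -0.21 ± 0.32 SE (adjusted p = 0.620), and it turned to 0.10 without Adult replicate 3 and to 0.06 with cyclic loess. Adult replicate 1 held the highest Adult value of all 3 targets and the lowest of Dll1. Adult replicate 3 held the lowest Adult value of the targets and the highest of Dll1. The Young arrays did not repeat this whole pattern for any target. Young replicate 3 held the highest Young value of Dll1, Hey1 and Heyl, and Young replicate 1 the lowest of Dll1 and Hey1 but the highest of Hes1. Young replicate 2 held the lowest Young value of Hes1 and Heyl. A link between Dll1 and the targets was not tested.

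**Figure D2:**
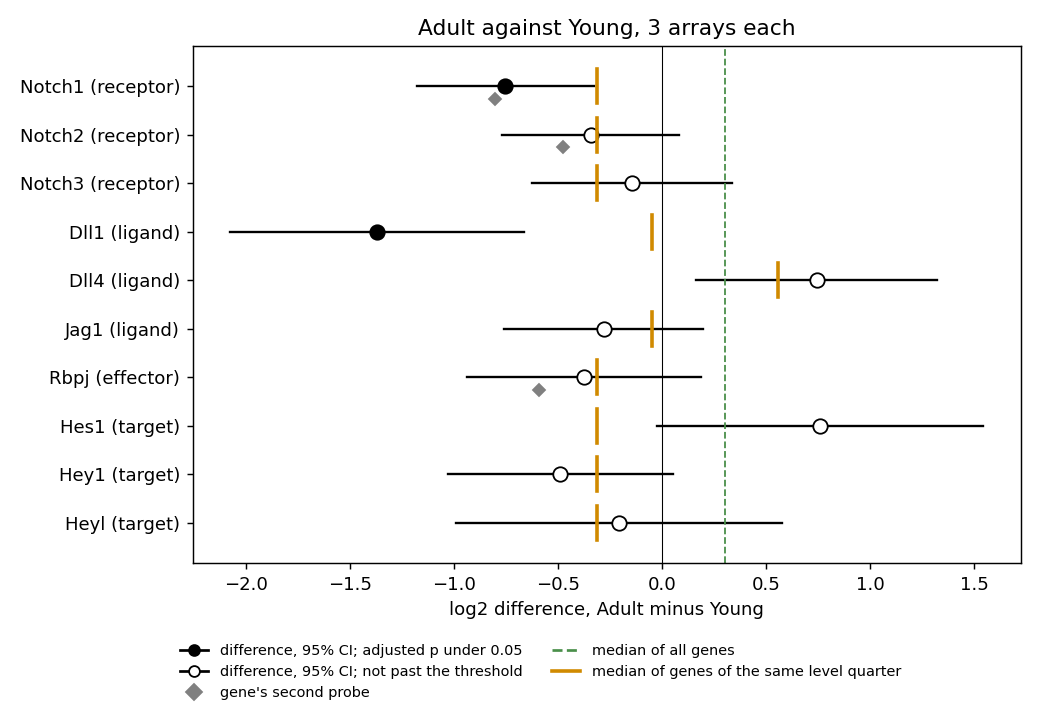
Log2 difference, Adult minus Young, of each member with its 95% confidence interval from 3 arrays per group; filled circles passed the threshold, grey diamonds are the dimmer probes of Notch1, Notch2 and Rbpj, the dashed line is the median of all genes (0.30) and orange bars are the medians of genes of the same brightness class. Dll1, at -1.37, lies at -1.32 relative to the median of its class, and Hes1 lies above its own by 1.07.

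Of 47 other genes of the pathway, chosen by role, 45 were measured, and 11 were lower, 2 were higher and 32 did not pass the threshold. Over all genes 8.44% were lower and 20.0% higher, and 18.9% of the brightest class were lower. Their median difference was -0.35, beside 0.30 over all genes and -0.31 in the brightest class. Lfng and Hey2 were well above background on fewer than 3 arrays and were not tested. Of 7 proteases and subunits of protease complexes that cut Notch receptors, 4 were lower, 3 did not pass and all 7 differences were negative, a direction that Aph1b lost with cyclic loess and the others kept under every scaling. The number called lower was 2 of 7 with quantile normalization, cyclic loess and scaling on well-detected probes. It was 5 with normexp and 6 with median scaling. The calls over all 32068 genes moved too, with 2708 lower under the main scaling, 4088 with normexp and 8819 with median scaling. With quantile normalization, cyclic loess and scaling on well-detected probes, 2750, 2145 and 1784 of all genes were lower. The 18.9% of the brightest class, where 4 of the 7 lay, holds for the main scaling only. Psen2, a catalytic subunit of gamma-secretase, stood at -0.21, 0.08 and -0.13 in Adult, against 0.98, 0.83 and 0.78 in Young. It was 1.94-fold lower (limma adjusted p = 0.0251), with tight groups far apart. The gamma-secretase subunits Psenen and Aph1a were 1.68-fold and 1.69-fold lower, and Adam10, the protease of the first cut, was 1.70-fold lower (adjusted p = 0.0343, 0.0442 and 0.0490). Adam10 and Aph1a did not pass with quantile normalization, cyclic loess or scaling on well-detected probes, Adam10 also not with normexp, and Psenen not with quantile normalization or cyclic loess. Ncstn, the subunit that receives the substrate, stood just outside the threshold at -0.61 (adjusted p = 0.0546). Ncstn was called lower with quantile normalization, cyclic loess, normexp and median scaling, but not with scaling on well-detected probes. The second probes of Aph1a and Psenen differed by -0.99 and -0.71, in the same direction as the first.

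Among genes that modify receptors, 1 of 4 measured was lower, Poglut1, which adds glucose to the receptor's outer repeats (1.89-fold, limma adjusted p = 0.0399). Poglut1 did not pass with quantile normalization, cyclic loess or scaling on well-detected probes. Among 11 genes of endocytosis and turnover 1 was lower, the ubiquitin ligase Itch (1.70-fold, adjusted p = 0.0366), which did not pass with scaling on well-detected probes. Among 9 nuclear cofactors and corepressors 1 was lower, Snw1, a nuclear partner of the Notch fragment (1.95-fold, adjusted p = 0.0356), which passed under each scaling. Maml1, Maml2 and Maml3, the Mastermind proteins, differed by -0.15, 0.47 and -0.14 and did not pass. Maml2 was called higher with scaling on well-detected probes, cyclic loess, normexp and the authors' matrix, but not with quantile normalization or median scaling.

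The 2 genes called higher were the target Hes5 and the ligand Dll3. Hes5, a target related to Hes1, stood at 2.27, 2.37 and 2.47 in Adult, against 1.61, 1.61 and 1.47 in Young. The groups were apart by several times their spread, and Hes5 was 1.75-fold higher (log2 difference 0.81 ± 0.17 SE, limma adjusted p = 0.0279). Hes5 did not pass with median scaling. Of the other further targets, Hes6 was at -0.79, Hes7 at 0.34 and Nrarp, a feedback inhibitor of the pathway, at 0.83, and none of them passed. Dll3, a ligand that damps Notch signalling in the cell that makes it, stood at -2.64, -0.97 and -0.89 in Adult, against -4.79, -5.00 and -5.62 in Young. Dll3 was well above background on 3 Adult arrays and 1 Young array, so it entered the test only through the group where it is high, and no size is given. It lay in the dimmest class, whose median difference was 1.44, and was not tested when detection on all 6 arrays was required.

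Of 6 genes reported as bound or driven by Notch and Rbpj in mouse muscle stem cells, 4 were lower in Adult and all 6 differences were negative. All 6 lay in the brightest class, of which 18.9% were lower. Calcr did not pass with quantile normalization, cyclic loess, normexp or scaling on well-detected probes, which left 3 of 6. Col5a1 and Col5a3, chains of collagen V, were 2.07-fold and 2.09-fold lower, Col6a1, a chain of collagen VI, was 1.95-fold lower, and Calcr, the calcitonin receptor of quiescent satellite cells, was 1.66-fold lower (limma adjusted p = 0.0258, 0.0264, 0.0261 and 0.0446). Pax7, the transcription factor that defines satellite cells, was at -0.34 ± 0.25 SE (adjusted p = 0.304) and Col6a2 at -0.52 ± 0.27 SE (adjusted p = 0.173). Of the 45 genes, 1, 0 and 0 passed without Adult replicate 1, 2 or 3, and 2, 7 and 1 without Young replicate 1, 2 or 3. Over all 32068 genes, 482, 770 and 298 passed without Adult replicate 1, 2 or 3. Without Young replicate 1, 2 or 3 these were 1353, 7677 and 2377, so the pathway counts fell together with those of all genes. Of the pathway genes, Hes5, Psen2, Itch, Dll3, Col5a1, Col5a3 and Col6a1 were the 7 that passed without Young replicate 2.

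**Figure D3:**
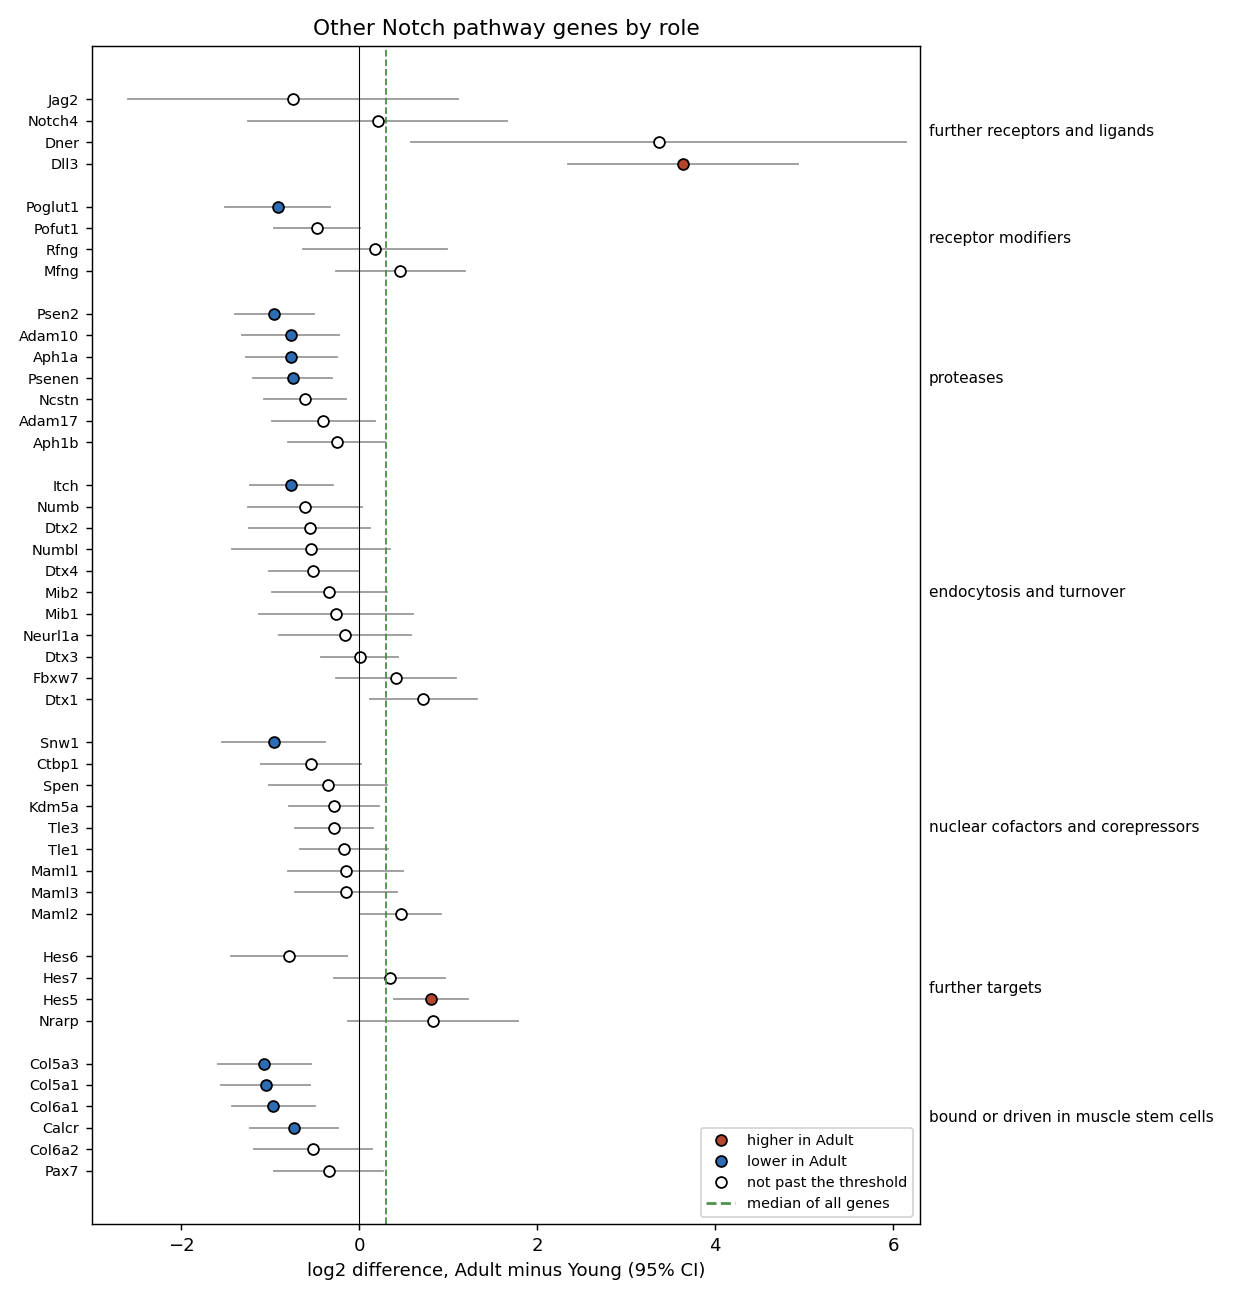
Log2 difference, Adult minus Young, with 95% confidence interval (3 arrays per group), of the 45 measured other pathway genes, ordered within each role; red circles were higher and blue circles lower past the threshold, open circles did not pass, and the dashed line is the median of all genes. All 7 proteases lie below 0, and Dll3 and Hes5 are the genes called higher, Dll3 with 1 Young array above background.

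The label of the sorted cells was checked against defining markers, of which Pax7, Itga7, Cd34 and Vcam1 were well above background on all 6 arrays. The marker counts below stand beside 20.0% of all genes called higher and 8.44% called lower, with 18.9% of the brightest class lower. Satellite cell markers numbered 12, with 6 lower in Adult and 6 short of the threshold. Their summed level was 110.2 to 147.2 in Adult and 152.4 to 173.5 in Young. Of 12 mural cell markers, which matter for Notch3 and Heyl because mural cells use both, 6 rose in Adult, 1 fell and 5 missed the threshold. Their summed level was 269.4 to 347.0 in Adult and 201.3 to 301.7 in Young. The defining mural markers Pdgfrb, Rgs5 and Kcnj8 were higher in Adult by 2.13, 1.87 and 3.58, and Myh11 was at 0.42 without passing. Their part in the values of Notch3 and Heyl was not tested. The summed level of endothelial markers overlapped between groups, at 19.5 to 27.9 in Adult and 19.4 to 30.7 in Young, and of the defining ones Pecam1, Kdr and Tie1 were above background on all arrays and Cdh5 on 2 of 3 Adult arrays. Leukocyte markers numbered 10, with 3 higher in Adult and 7 short of the threshold (summed level 378.9 to 403.0 in Adult and 220.0 to 425.8 in Young). Tyrobp, 1 of the 3 called higher, was not well above background on any Young array. It entered the test only through the group where it is high, so its call is not read as a difference. Of 7 measured fibro-adipogenic markers 2 were higher and 2 lower (summed level 28.4 to 43.3 in Adult and 71.3 to 79.6 in Young). Dpp4, 1 of those higher, was well above background on 3 Adult arrays and 2 Young arrays. Pdgfra was not tested, being well above background on fewer than 3 arrays.

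The genes with profiles most like those of the called members were found by the root mean square difference, over the 6 arrays, between log2 values centred on each gene's own mean. Among 14214 named genes well above background on all arrays, Cdc23, a subunit of the anaphase-promoting complex, and Bod1, a protein of chromosome alignment in mitosis, were nearest to Notch1, at 0.036 and 0.042. Adamts20, a secreted protease, and Dynlt1c, a dynein light chain gene, were nearest to Dll1, at 0.12 and 0.16. Adamts20 stood at -2.69, -2.17 and -1.58 in Adult, against -1.20, -0.95 and -0.71 in Young. Its order of arrays within each group was that of Dll1, which the choice by nearest profile favours. Dynlt1c stood at -2.51, -1.67 and -1.52 in Adult, against -0.79, -0.50 and -0.65 in Young, where its order differed from that of Dll1.

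Promoter windows from RefSeq (GRCm38.p6), running from 250 bases before to 50 bases after a gene's start, were held for 7 members in 9 windows. They were searched on both strands for TGGGAA, the core of the motif that Rbpj binds, and for the longer GTGGGAA, which contains it. The core was found in 25.6% of all 32851 promoter windows and the longer form in 6.4%. Among the members the core was in both Rbpj windows, which overlap, and in none of the 7 windows of Notch1, Notch2, Notch3, Dll1, Dll4 and Jag1. The longer form was in none of the 9 windows, those of Rbpj included. The 250 bases before the first Rbpj start lie at chr5:53590096-53590345 on the plus strand. They are shown because they hold the core of the motif that Rbpj itself binds. Matches are in capitals, the first on the plus and the second on the minus strand.
Rbpj: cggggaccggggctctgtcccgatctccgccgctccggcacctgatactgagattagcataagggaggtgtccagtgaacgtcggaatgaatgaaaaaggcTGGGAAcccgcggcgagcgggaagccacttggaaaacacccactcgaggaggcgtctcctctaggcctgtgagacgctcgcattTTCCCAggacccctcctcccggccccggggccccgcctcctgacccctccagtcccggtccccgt
The matches begin 149 and 65 bases before the start. They describe this window only and were not set against binding data.

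The direction of 9 members was the same under all 22 other settings, and Heyl kept its sign in 19. Settings that changed only the probe filter, the variance model or the replicate block left each difference unchanged, so there the sign could not turn. Dll1 passed the threshold in 14 of 20 tested settings and Notch1 in 10. Median scaling, under which the median of all genes lay at -0.24, put 6 members past the threshold, all of them lower. These were Notch1, Notch2, Dll1, Jag1, Rbpj and Hey1. Calls over all 32068 genes moved the same way, to 8819 lower and 3445 higher, from 2708 lower and 6423 higher under the main scaling.

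**Figure D4:**
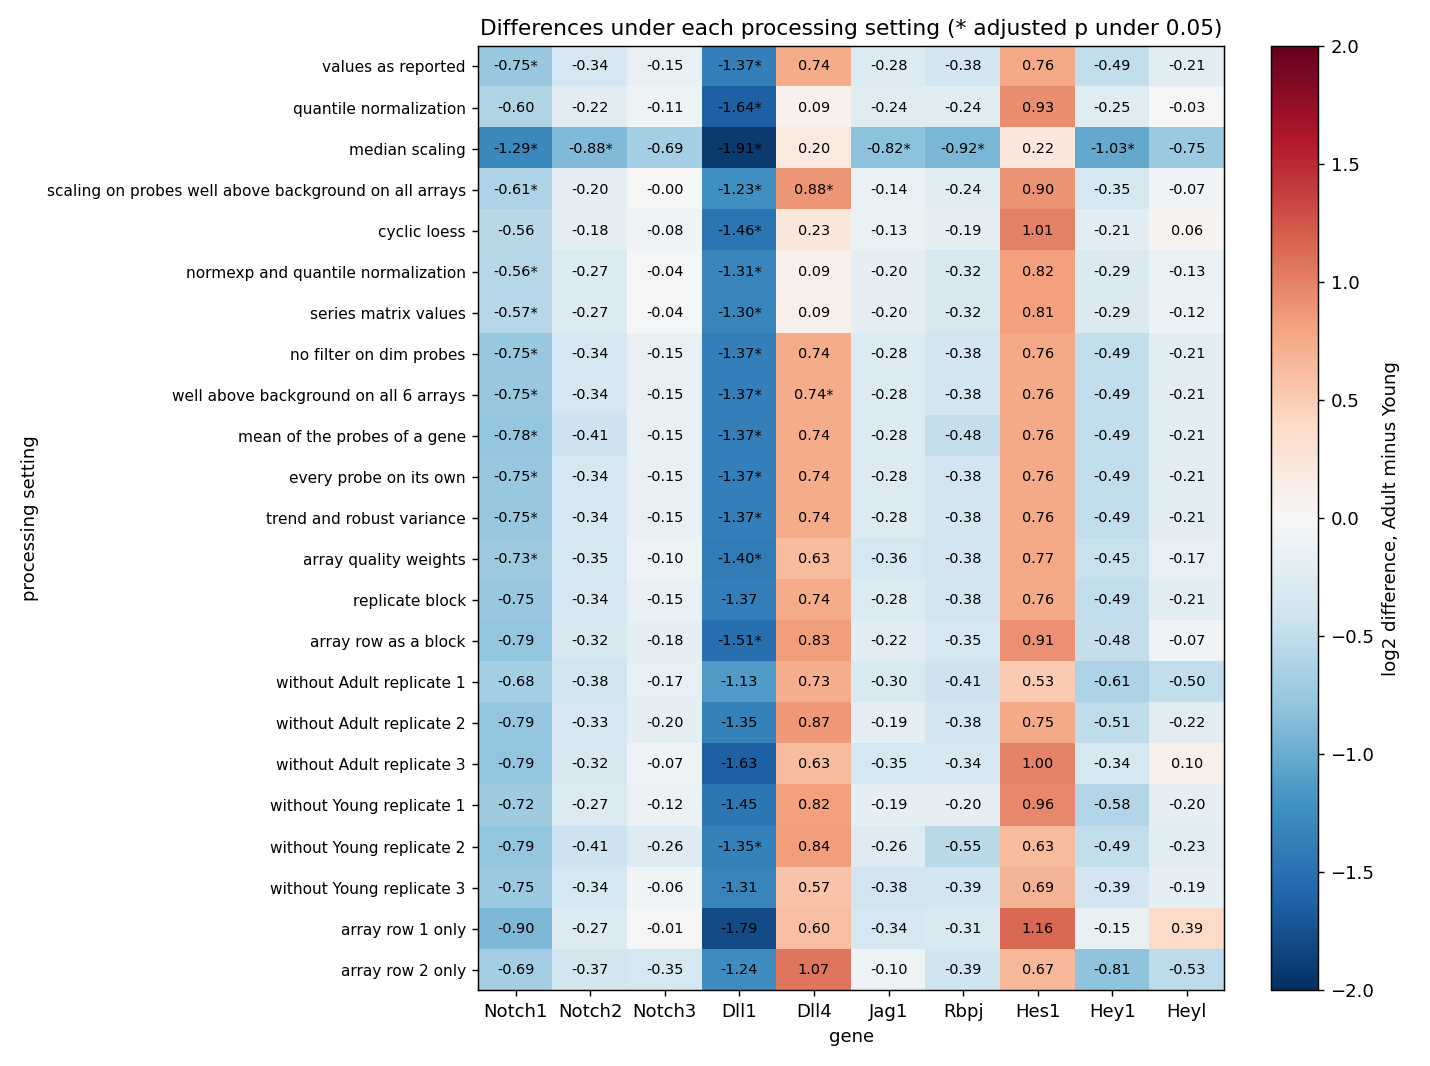
Log2 difference, Adult minus Young, of each member (columns) under each processing setting (lines), with an asterisk where the adjusted p was under 0.05; blue is lower and red higher in Adult, and the array row settings hold values without a test. The Dll1 column is blue throughout, from -1.91 to -1.13, and the Hes1 column is red throughout, from 0.22 to 1.16.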

How the data were processed

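Each of the 6 samples was read on 1 single-colour Agilent array, and all arrays lay on 1 slide in 2 rows with 1 scan time. Per the file headers, the authors' deposited intensity values were made with Feature Extraction 10.7.3.1 as background-subtracted, detrended Cy3 signal, with surrogate values near background and no scaling between arrays. The deposited series matrix held log2 values with a median of 7.56 in every column, within 0.0312 of normexp (offset 50) with quantile normalization computed from the scanner files.

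The arrays had 62976 spots. The 3671 control spots and any outlier-flagged ones were removed, copies of a probe were averaged, and log2 processed signal was set relative to each array's 75th percentile. Probes missing a value on any array were dropped, leaving 55642 of 55681. A probe entered the tests if 3 or more arrays showed it well above background, and the brightest such probe stood for its gene. Symbols were updated with the GRCm38.p6 RefSeq table. The comparison used the limma package, version 3.58.1 (R 4.3.3), with moderated statistics from lmFit and eBayes, Benjamini-Hochberg adjustment over 32068 genes and a threshold of 0.05. The same fit was also run on data simulated from the means and spreads of these genes. The named genes are all members, the other pathway genes past the threshold or with the smallest p of their role, the 2 nearest profiles of each called member and defining cell type markers. Maml1, Maml2, Maml3, Ncstn, Hes6, Hes7, Nrarp and Col6a2 were named after their values were seen. A gene of the pathway list is not reported here and is left out of its counts. Members and lists were chosen with earlier results of these data known. The number of arrays limits the precision. Alternatives covered scaling, background correction, filters, probe choice, variance model, blocks and left-out arrays.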

Additional observations from a re-analysis of the deposited data

How the results depend on the processing

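Genes past the threshold numbered 9131 (6423 higher, 2708 lower in Adult), 5614 with quantile normalization (2864 higher, 2750 lower), 5273 with cyclic loess (3128 higher, 2145 lower), 12264 with median scaling (3445 higher, 8819 lower), 5941 with array row as a block (4742 higher, 1199 lower) and 298 to 7677 with 1 array left out. Members past it numbered 1 with quantile normalization, cyclic loess and array row as a block, 6 with median scaling and 0 to 1 with 1 array left out. Other pathway genes past it numbered 24 with median scaling, 6 with array row as a block and 0 to 7 with 1 array left out. Scaling on well-detected probes split the calls into 7887 higher and 1784 lower, normexp into 4428 and 4088, the authors' matrix into 4422 and 4089, and a filter for detection everywhere into 5349 and 3585. Under the replicate block no call was left in limma, at 0 genes, 0 members and 0 other pathway genes, with 12721, 3 and 15 at an unadjusted p under 0.05, but samples sharing only a number did not deviate together (correlations -0.0023, -0.093 and -0.14). The Heyl difference was -0.21 and turned to 0.0563 with cyclic loess and 0.389 within array row 1, with -0.498 to 0.0961 when 1 array was left out (0.0961 without Adult replicate 3). Array row 1 held Adult replicate 1 and Young replicates 1 and 2, and array row 2 held Adult replicates 2 and 3 and Young replicate 3. A difference within a row thus rests on a single array of 1 group. Within array rows 1 and 2, Notch1 was at -0.90 and -0.69 and Dll1 at -1.79 and -1.24. What causes these shifts was not tested, though leaving out an array also leaves fewer samples. Detection on 1 of 3 Young arrays limits Dll3.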
